A study of Mus musculus with 6 samples.

Results

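The urea cycle and the enzymes that break down amino acids were examined in 6 whole-liver transcriptomes of C57BL/6 mice. The group was defined by name as 41 genes, sorted into 10 routes by the amino acid or intermediate that each enzyme handles. Rows were found by gene symbol for 40 of the 41 genes among 24927 rows. Sdsl was not analysed here, and Acmsd was left out because it sits in the block of chromosome 1 rows, where the symbols and the values do not belong together. That left 39 genes with a usable value. Of these, 23 had at least 1 FPKM (read counts divided by transcript length and by library size) in at least 3 libraries and were tested, and 16 were under that filter.

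The 3 control libraries were labelled wild type and the 3 others Cdkl3-/-, a knockout of a cyclin-dependent kinase-like gene that the series' design text places in the liver. All mice were labelled as male, 10 months old and of the same strain, and the design text gives a chow diet. The sources used here do not give the deleting transgene, the deleted exons or whether each library came from its own mouse, so a p-value speaks only of the spread among these 6 libraries. Each library held about 20460000 to 48610000 counted reads. Transcripts encoded by mitochondria took 63.17% to 73.88% of the FPKM. Cdkl3 measured 0.166, 0.0883 and 0.119 FPKM under the wild type label and 0.0761, 0.146 and 0.195 FPKM under the knockout label. A loss of its RNA was not seen, but at levels this far under the filter in both groups it could hardly have been. Xist was at 192 to 292 FPKM under the wild type label and at most 0.0273 FPKM under the knockout label, while the Y-linked Ddx3y was at most 0.207 FPKM and 38.2 to 50.8 FPKM. Labelled genotype and these sex-linked transcripts vary together in all 6 libraries, and their parts in any difference below cannot be told apart.

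Alb and Fgb, plentiful in hepatocytes, were at 261 to 1613 and 323 to 1131 FPKM and carried most of the hepatocyte marker sum, while Apoa1 and Ahsg were at 0.0791 and 0.133 FPKM or less under the wild type label, with Apoa1 listed at 0 in wild type replicate 2. The 6 hepatocyte markers with a row, of 8 listed, summed to 632 to 1081 FPKM under the wild type label and 1700 to 2945 FPKM under the knockout label. Periportal markers (7 of 8 with a row) summed to 158 to 190.3 and 217 to 391 FPKM, and pericentral markers (9 of 10) to 1485 to 1779.6 and 2670.3 to 3193 FPKM. Not every marker followed its sum. The periportal Ctsc (60 to 76.2 and 20.7 to 39.2 FPKM) and the pericentral Oat (312 to 706 and 149 to 204 FPKM) were lower under the knockout label. Pck1, Aldh1b1, Rgn and Slc1a2 overlapped, and the rest were higher, with the largest rises in FPKM in the pericentral Cyp2e1 and Rnase4. Sums were lower under the knockout label for stellate cell markers (4 of 6), with 70.3 to 123 and 19.8 to 30.7 FPKM, and for endothelial markers (6 of 6), with 9.97 to 11.3 and 5.47 to 5.9 FPKM. Most of the stellate sum was Dcn, while Col1a1 was at 0.0149 to 0.0376 and 0.0399 to 0.0621 FPKM and Pdgfrb overlapped. Of the endothelial markers, Kdr, Cdh5 and Lyve1 were lower under the knockout label and Stab2 overlapped. Pecam1, at 0 and 0.0365 to 0.162 FPKM, and Clec4g, at 0.1 to 0.338 and 0.365 to 0.709 FPKM, were higher. In whole liver, fewer cells of a type and less RNA per cell cannot be told apart, and the part of these markers in the results was not tested. Knockout replicate 1 stood apart, since kidney tubule markers (11 of 15) summed to 5320.4 FPKM there, nearly all of it Kap, and to 5.96 FPKM or less elsewhere. The 10 kidney markers other than Kap summed to 56.4 FPKM in that library and to 0.231 to 1.49 FPKM in the others. Kidney also uses several of these enzymes, so values without that library are given where a call or a direction among the members changes.

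The liver is the main site where nitrogen from amino acids is made into urea. Transaminases and dehydrogenases pass amino groups to glutamate and release ammonia, and the urea cycle joins ammonia with aspartate nitrogen. The carbon skeletons go down separate routes in the cytosol and mitochondria and end as fuel or as precursors of glucose. Many of these enzymes are among the plentiful transcripts of a normal liver and are tuned by glucagon, glucocorticoids and feeding.

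Promoter sequence is shown for 4 genes, because 2 of them, Otc and Aass, were the tested members called lower under the knockout label, and the other two, Pccb and Tat, are the largest rises among members with 1 listed start and no other annotated transcript start in the window. Each run is the 250 bases before the start in RefSeq's GRCm38.p6, read on the gene's own strand. Capitals mark matches, on either strand, to 5 short motifs. The letters searched were TATAAA for the TATA box, CCAAT for the box that NF-Y binds, TTCNNNGAA for the STAT element, TTGCNNAA for the C/EBP element and TGACG for the core of the cyclic AMP element.
Otc, chrX:10252055-10252304, plus strand: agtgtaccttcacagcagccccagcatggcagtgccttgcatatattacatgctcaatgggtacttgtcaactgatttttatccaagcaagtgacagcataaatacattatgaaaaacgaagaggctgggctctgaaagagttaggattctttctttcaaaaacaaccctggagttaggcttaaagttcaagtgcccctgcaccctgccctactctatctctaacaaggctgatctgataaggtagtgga
Aass, chr6:23132987-23133236, minus strand: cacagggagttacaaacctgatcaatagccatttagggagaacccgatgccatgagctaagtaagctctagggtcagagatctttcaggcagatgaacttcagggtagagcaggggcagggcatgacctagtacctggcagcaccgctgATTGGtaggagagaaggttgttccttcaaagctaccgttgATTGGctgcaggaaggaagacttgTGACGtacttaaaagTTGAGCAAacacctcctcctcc
Pccb, chr9:101034885-101035134, minus strand: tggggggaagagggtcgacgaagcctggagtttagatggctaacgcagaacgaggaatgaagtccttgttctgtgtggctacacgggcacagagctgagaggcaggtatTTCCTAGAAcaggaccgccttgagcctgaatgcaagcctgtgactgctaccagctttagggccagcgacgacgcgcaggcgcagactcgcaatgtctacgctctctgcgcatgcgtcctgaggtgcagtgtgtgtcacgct
Tat, chr8:109990186-109990435, plus strand: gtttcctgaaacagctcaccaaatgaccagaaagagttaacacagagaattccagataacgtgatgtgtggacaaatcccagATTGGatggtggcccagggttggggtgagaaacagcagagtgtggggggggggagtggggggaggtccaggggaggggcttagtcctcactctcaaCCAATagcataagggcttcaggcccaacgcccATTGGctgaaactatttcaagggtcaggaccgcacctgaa
The Aass window held 2 CCAAT boxes, a cyclic AMP core and a C/EBP match, the Tat window 3 CCAAT boxes, and the Pccb window a STAT match 141 bases before the start. None of the 5 motifs was in the Otc window, which says only that these letters are not there. Over the 32 usable members found in the promoter table, 54.3% of 35 windows held a CCAAT box, against 33.8% of all 32851 windows of that length. The C/EBP motif was in 14.3% against 9.56%, the STAT motif in 11.4% against 7.02%, the cyclic AMP core in 11.4% against 17.8% and the TATA box in 11.4% against 12.4%. These are matches of letters, not binding sites, and none of these shares was tested.

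The level of a member went with the base composition of its transcript. Across the 39 genes, Spearman's rho between the mean FPKM over 6 libraries and the GC content of the longest transcript was -0.76, where the points share the same libraries and genes are not independent replicates. With exon length rho was 0.06. The same relation was -0.29 over 19717 genes. The 8 members under 45% GC had a median of 30.5 FPKM, the 9 members from 45 to 50% GC 16 FPKM and the 9 from 50 to 53% GC 6.17 FPKM. The 13 members at 53% GC or more had a median of 0.127 FPKM, and Ftcd was the only one of them to pass the filter. Among all genes, the share passing the filter ran from 40.4% under 45% GC to 7.23% at 53% or more. The part of base composition in the levels near 0 was not tested.

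**Figure D1:**
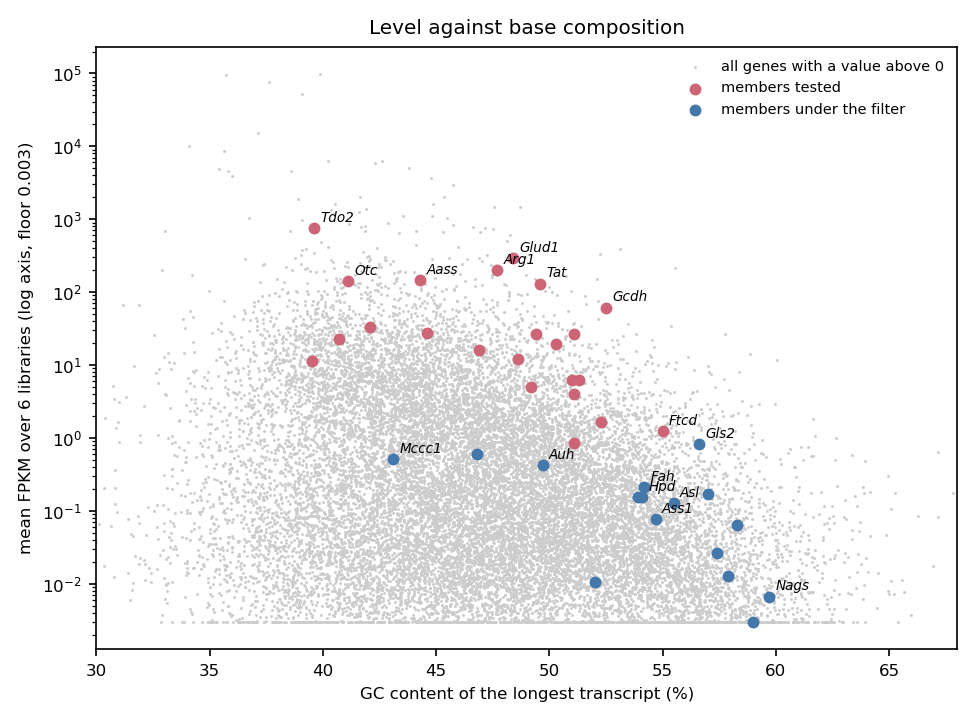
Mean FPKM over the 6 libraries (log axis, values under 0.003 drawn at 0.003) against the GC content of the longest transcript in percent. Grey points are all genes with a value above 0 and large points are the 39 members, tested (red) or under the filter (blue). Of the 13 members at 53% GC or more, 12 are under the filter.

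The values rest on whole reads. Turning FPKM back into reads by way of exon length and the worth of 1 read came within 0.19 of a whole number in each library for all 39 members, and within 0.15 for 38 of them, the widest gap being for Tdo2, which had 46591 reads or more per library. Summed over the members, those labelled wild type held 1936, 2278 and 1585 FPKM and those labelled knockout 1846, 2093 and 1977 FPKM. The totals overlapped, yet their makeup differed. Tdo2, Glud1, Arg1, Aass and Otc were the 5 highest members in each library labelled wild type and made up 85.8% to 87.9% of the sum. In each library labelled knockout Tat stood among the first 5 in place of Aass, and the first 5 made up 73.7% to 81.1%.

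**Figure D2:**
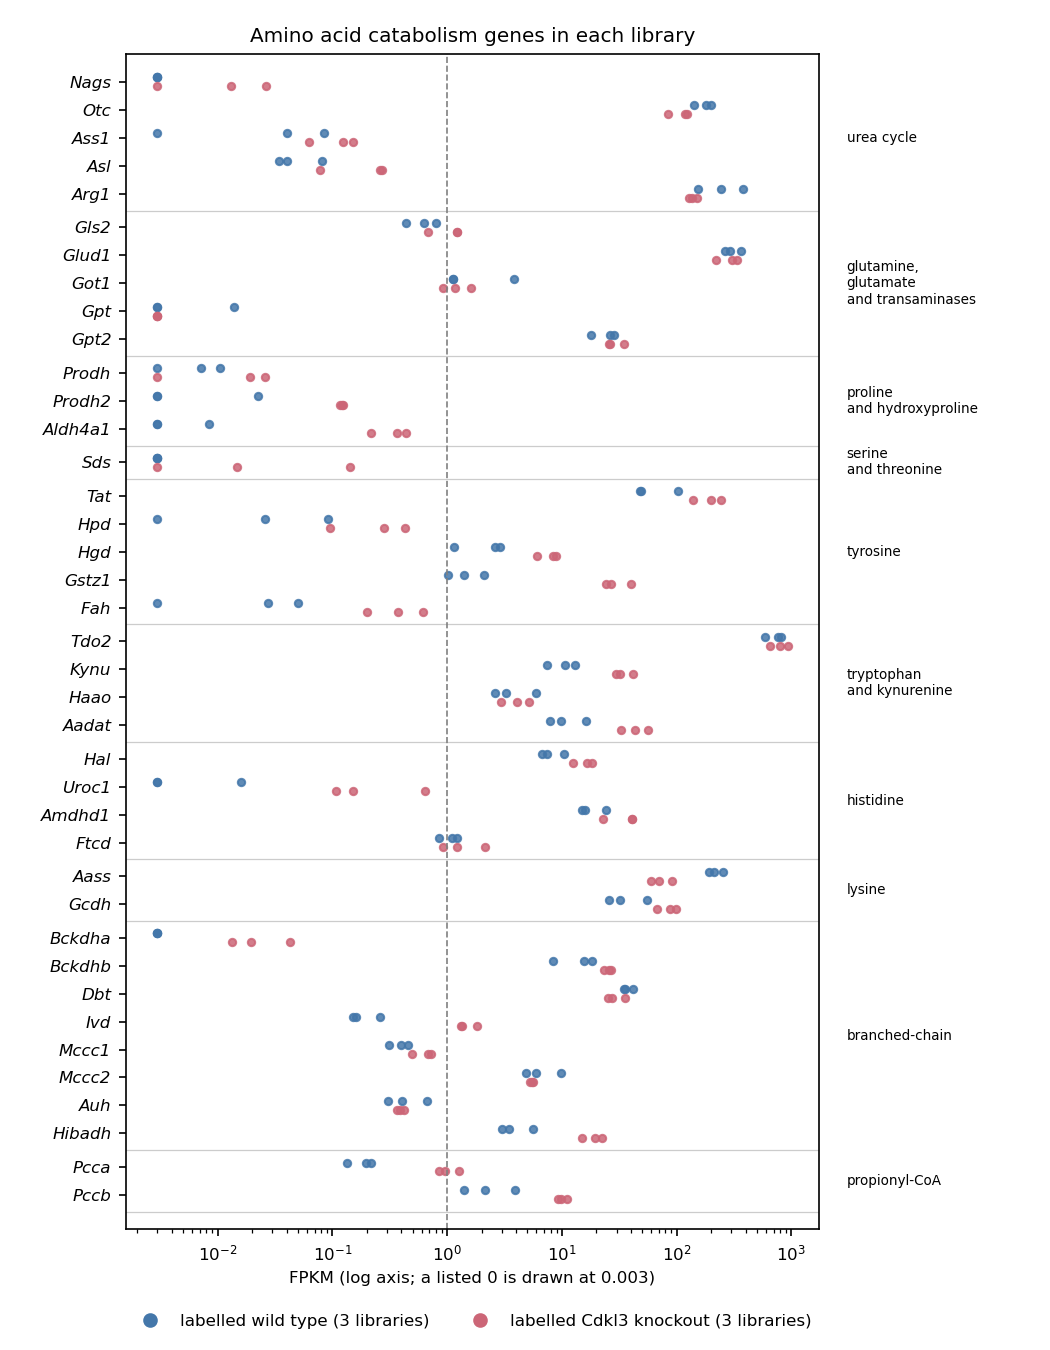
FPKM of the 39 members in each library (log axis, a listed 0 drawn at 0.003), grouped by route, with 1 point per library and the dashed line at 1 FPKM. The knockout points of Gstz1, Hibadh, Kynu and Aadat lie to the right of all wild type points, and those of Aass and Otc to the left.

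Of the 23 tested members, 12 (52.2%) were called higher and 2 (8.7%) lower under the knockout label, and 9 did not pass the test. Over all 5673 tested genes, 33.7% were higher and 20.4% lower, or 54.1% in either direction. The median log2 difference was 0.86 over the tested members and 0.12 over all tested genes, on the log2(FPKM + 1) scale used for all differences here. Ivd reached 1 FPKM in none of the libraries labelled wild type and could hardly have been called lower. Values of the groups did not overlap for 14 tested members, with 11 higher and 3 lower, where 63.9% of all tested genes had such groups, 38.0% higher and 25.8% lower. Centring each library on its median lowered every difference by 0.28 and gave 10 higher and 4 lower members, against 25.4% and 33.3% of all genes. After a loess trend on GC content and length was taken out of each library, 9 members were higher and 4 lower, against 35.0% and 16.7% of all genes. Without knockout replicate 1, which held the kidney transcripts, 10 members were higher and 2 lower, against 1884 and 1078 of all 5673 genes. Amdhd1 and Bckdhb were the members no longer called. Across the 23 members rho between the difference and GC content was 0.0, while over 5539 genes it was 0.36.

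**Figure D3:**
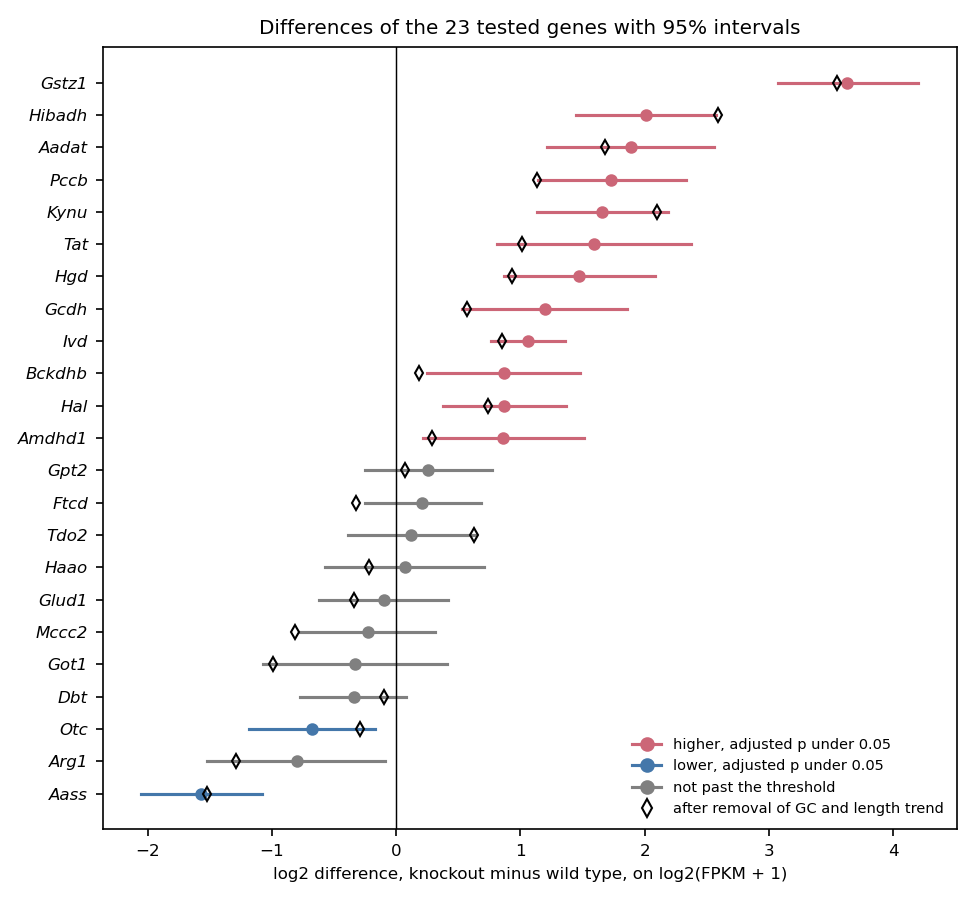
Log2 difference (knockout minus wild type, on log2(FPKM + 1)) of the 23 tested members with 95% intervals from limma. Red marks members called higher, blue lower and grey neither, and open diamonds are the values after removal of the GC and length trend. Gstz1 at 3.63 is the highest and Aass at -1.57 the lowest.

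In the urea cycle, Otc was lower, Arg1 did not pass the test, and Nags, Ass1 and Asl had next to no reads. Otc, the mitochondrial ornithine transcarbamylase that joins ornithine and carbamoyl phosphate to citrulline, measured 142, 179.7 and 199.8 FPKM under the wild type label and 119, 123 and 84.6 FPKM under the knockout label. The groups did not overlap, and the log2 difference was -0.68 (SE 0.22, limma adjusted p = 0.03), a mean 1.6 times as high in the libraries labelled wild type. The call was lost without wild type replicate 2 or 3 (adjusted p = 0.087 and 0.1) or without knockout replicate 3 (0.11), and the difference shrank to -0.29 (adjusted p = 0.26) once the GC and length trend was removed. Arg1, arginase, which splits arginine into urea and ornithine, measured 244, 379.7 and 154 FPKM under the wild type label and 129, 136 and 152 FPKM under the knockout label. All 3 knockout values lay below all 3 wild type values, but wild type replicate 3 came close, and the difference was -0.80 (95% interval -1.52 to -0.09, limma adjusted p = 0.057). It passed the threshold without wild type replicate 3 (adjusted p = 0.012), after median centring (0.021) and with the trend removed (-1.29, adjusted p = 0.0072). Removal of mitochondrial transcripts also gave a call (adjusted p = 0.022). In the other 13 of 17 alternatives Arg1 was not called. Without wild type replicate 2, its highest value, the difference was -0.48 (adjusted p = 0.16).

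The middle and regulatory steps of the cycle were almost unread. Ass1, argininosuccinate synthase, had 0, 10 and 2 reads against 9, 6 and 8 reads (54.7% GC), and Asl, argininosuccinate lyase, had 7, 8 and 8 reads against 32, 50 and 10 reads (55.5% GC). Nags, which makes the activator of the cycle's first enzyme, was listed at 0 in 4 of 6 libraries and had at most 3 reads (59.7% GC). In a fit of all 20529 genes without the filter, the differences were 0.10 (limma adjusted p = 0.21) for Ass1, 0.19 (limma adjusted p = 0.14) for Asl and 0.02 (limma adjusted p = 0.45) for Nags. None of the 3 passed the threshold in that fit.

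Of the 3 tested genes listed under glutamine, glutamate and transaminases, none passed limma's test. Their count at an unadjusted p under 0.05 was 0, where 36.3% of all tested genes were higher and 23.8% lower. Tat, Aadat and Hal, which also move amino groups or release ammonia, were called higher and are described with their own routes. Glud1, glutamate dehydrogenase, was the second highest member in both groups, with 291, 361 and 262 FPKM under the wild type label and 221, 334 and 303 FPKM under the knockout label. The groups overlapped, with a difference of -0.10 (95% interval -0.62 to 0.42, limma adjusted p = 0.73), which was 0.08 without knockout replicate 1 and 0.03 without wild type replicate 2. Gpt2, the mitochondrial alanine transaminase, measured 26.2, 28.7 and 17.9 FPKM under the wild type label and 26, 34.6 and 26.2 FPKM under the knockout label, again overlapping, with a difference of 0.26 (95% interval -0.25 to 0.77, limma adjusted p = 0.34). Got1, the cytosolic aspartate transaminase, was near the filter at 1.13, 3.82 and 1.12 FPKM under the wild type label and 1.17, 0.916 and 1.61 FPKM under the knockout label. Wild type replicate 2 stood above the other 5 libraries, and the difference of -0.33 (95% interval -1.07 to 0.41, limma adjusted p = 0.41) became 0.06 without it. After removal of the GC and length trend Got1 was called lower at -0.99 (limma adjusted p = 0.029). Gls2, the liver-type glutaminase that frees ammonia from glutamine, reached 1 FPKM only in knockout replicates 1 and 2 and measured 0.631, 0.793 and 0.436 FPKM under the wild type label and 1.21, 1.22 and 0.689 FPKM under the knockout label. Its difference without the filter was 0.33 (limma adjusted p = 0.2). The cytosolic paralog of Gpt2, Gpt, had 2 reads in wild type replicate 2 and was listed at 0 elsewhere, at 59% GC against 51.1% for Gpt2.

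The proline and serine routes were all under the filter. Prodh, the mitochondrial proline oxidase, had 2, 4 and 0 reads against 0, 8 and 4 reads, and its difference was 0.01 (limma adjusted p = 0.58). Prodh2, which oxidizes hydroxyproline, had 2, 0 and 0 reads against 7, 12 and 8 reads, and Aldh4a1, the dehydrogenase that both pathways use next, had 0, 2 and 0 reads against 26, 86 and 48 reads. Both were called higher in the fit without the filter, with differences of 0.15 (limma adjusted p = 0.0094) and 0.42 (limma adjusted p = 0.013). In that fit 15.4% of all genes were higher and 5.09% lower. For both genes every knockout value lay above every wild type value. Sds, serine dehydratase, a periportal enzyme that yields pyruvate, had no read under the wild type label and 6, 1 and 0 reads under the knockout label, too few for a comparison.

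All 3 tested genes of the tyrosine route, Tat, Hgd and Gstz1, rose, where 33.7% of all tested genes were higher and 20.4% lower. They remained called in every alternative in which they could be tested. Tat, tyrosine aminotransferase, the glucocorticoid-responsive first step, measured 48.9, 103 and 47.7 FPKM under the wild type label and 245, 199 and 140 FPKM under the knockout label. The groups did not overlap and knockout replicate 1 was highest, with a log2 difference of 1.59 (SE 0.34, limma adjusted p = 0.0052). Hgd, homogentisate dioxygenase, which opens the aromatic ring, measured 2.64, 2.91 and 1.14 FPKM under the wild type label and 8.4, 8.86 and 6.02 FPKM under the knockout label, a difference of 1.47 (SE 0.26, limma adjusted p = 0.0024). Gstz1, maleylacetoacetate isomerase, measured 2.11, 1.02 and 1.4 FPKM under the wild type label and 26.7, 40.3 and 24.3 FPKM under the knockout label. Each knockout value of Gstz1 was over 10 times the highest wild type value, and its difference of 3.63 (SE 0.25, limma adjusted p = 7.2e-05) was the largest among the members, at 20.1 times on the FPKM scale. Its reads ran from 146 to 386 and from 3297 to 8105. With the GC and length trend removed the differences of Tat and Hgd were smaller, at 1.01 and 0.93 (adjusted p = 0.033 and 0.0099).

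Hpd, which makes homogentisate, and Fah, which splits fumarylacetoacetate in the last step, were under the filter at 54.1% and 54.2% GC. Hpd had 2, 0 and 4 reads against 5, 36 and 16 reads and a difference of 0.28 (limma adjusted p = 0.11). Fah had 4, 3 and 0 reads against 11, 54 and 22 reads and was called higher at 0.43 (limma adjusted p = 0.04) in the fit without the filter. For both, the lowest knockout value lay above the highest wild type value, narrowly so for Hpd at 0.0958 against 0.0919 FPKM.

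In the tryptophan route Kynu and Aadat rose, while Tdo2 and Haao did not pass the test. Tdo2, tryptophan dioxygenase, which opens the indole ring, was the highest member in every library, with 769, 810.5 and 587 FPKM under the wild type label and 646, 790 and 925 FPKM under the knockout label. The groups overlapped, with a difference of 0.12 (95% interval -0.39 to 0.64, limma adjusted p = 0.67), and its direction depended on scaling. Kynu, kynureninase, rose from 12.9, 10.7 and 7.5 to 31.8, 42.1 and 29.7 FPKM without overlap, a difference of 1.66 (SE 0.23, limma adjusted p = 0.00077). Aadat, a transaminase that acts on kynurenine and on the lysine product 2-aminoadipate, rose from 16.4, 9.91 and 7.83 to 43.3, 55.9 and 32.7 FPKM, a difference of 1.89 (SE 0.29, limma adjusted p = 0.0013). Both kept their call in every alternative run. Haao, which makes the quinolinate precursor, measured 5.99, 3.25 and 2.61 FPKM under the wild type label and 2.96, 4.1 and 5.16 FPKM under the knockout label, with overlapping groups and a difference of 0.07 (95% interval -0.57 to 0.71, limma adjusted p = 0.85) whose sign turned under other scalings. Kynu as a share of Tdo2 within a library, a ratio chosen after its values were seen and not tested, was 1.67%, 1.32% and 1.28% under the wild type label and 4.91%, 5.33% and 3.21% under the knockout label.

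The 2 members listed under the lysine route changed in opposite directions. Aadat, described above and called higher, also acts on a lysine product. Aass, the bifunctional mitochondrial enzyme that starts lysine breakdown, fell from 213, 252 and 190.1 to 91, 69.6 and 60.3 FPKM. The lowest wild type value was over 2 times the highest knockout value, and the log2 difference was -1.57 (SE 0.21, limma adjusted p = 7e-04), with a mean 2.96 times as high in the libraries labelled wild type. Gcdh, glutaryl-CoA dehydrogenase, further down the same route and shared with tryptophan, rose from 55, 32 and 26 to 87.6, 98 and 67.1 FPKM, a difference of 1.20 (SE 0.29, limma adjusted p = 0.009). Wild type replicate 1 was the nearest to the knockout values, and the call was lost after removal of the GC and length trend (0.57, adjusted p = 0.1), while that of Aass was kept (-1.52, adjusted p = 0.00077). Gcdh as a share of Aass was 25.8%, 12.7% and 13.7% under the wild type label and 96.3%, 141% and 111% under the knockout label, a ratio chosen after its values were seen and not tested.

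In the histidine route 2 of 3 tested genes were called higher, where 33.7% of all tested genes were higher and 20.4% lower. Hal, histidine ammonia-lyase, the periportal first step, rose from 10.4, 6.75 and 7.38 to 18.2, 16.6 and 12.5 FPKM without overlap, a difference of 0.87 (SE 0.21, limma adjusted p = 0.0097). The call was lost when mitochondrially encoded transcripts were taken out and the rest rescaled (0.63, adjusted p = 0.076). Amdhd1, the imidazolonepropionase further down, went from 24.1, 16 and 14.9 to 40.5, 40.7 and 22.7 FPKM. Knockout replicate 3 lay below wild type replicate 1, and the call, 0.86 (SE 0.28, limma adjusted p = 0.03), was lost in 8 of 17 alternatives. Those included leaving out wild type replicate 2 or 3 or knockout replicate 1 or 2 (adjusted p = 0.096, 0.1, 0.081 and 0.093). Ftcd, which passes the last histidine carbon to folate, measured 0.843, 1.22 and 1.1 FPKM under the wild type label and 1.21, 2.15 and 0.926 FPKM under the knockout label, overlapping, with a difference of 0.21 (95% interval -0.25 to 0.68, limma adjusted p = 0.4) whose sign turned under other scalings. Uroc1, urocanase, between Hal and Amdhd1, had 2, 0 and 0 reads against 13, 88 and 10 reads and a difference of 0.35 (limma adjusted p = 0.16), and it was called higher only with a pseudocount of 0.1 (adjusted p = 0.046).

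Of the 5 tested genes of branched-chain amino acid breakdown, Hibadh, Ivd and Bckdhb rose and Dbt and Mccc2 did not pass the test. Over all tested genes 33.7% were higher and 20.4% lower. Hibadh, 3-hydroxyisobutyrate dehydrogenase of the valine branch, rose from 5.66, 2.99 and 3.47 to 22.6, 19.6 and 15 FPKM, a difference of 2.01 (SE 0.24, limma adjusted p = 0.00044) that kept its call in every alternative. Ivd, isovaleryl-CoA dehydrogenase of the leucine branch, was at 0.262, 0.153 and 0.16 FPKM under the wild type label and 1.34, 1.81 and 1.31 FPKM under the knockout label, with 52, 41 and 18 reads against 181, 394 and 192 reads and a difference of 1.06 (SE 0.13, limma adjusted p = 0.00049), or 0.85 (adjusted p = 0.0019) with the trend removed. Bckdhb, the beta subunit of the branched-chain ketoacid dehydrogenase, which commits all 3 amino acids to breakdown, went from 18.4, 15.5 and 8.42 to 26, 26.8 and 23.4 FPKM, a difference of 0.87 (SE 0.27, limma adjusted p = 0.025). That call was lost without knockout replicate 1 or 2 (adjusted p = 0.052 and 0.066), after median centring (0.58, adjusted p = 0.089) and with the trend removed (0.18, adjusted p = 0.54), and in 6 of 17 alternatives in all. Dbt, the transacylase core of the same complex, measured 34.6, 41.4 and 35.5 FPKM under the wild type label and 35.7, 27.1 and 25.2 FPKM under the knockout label. Its groups overlapped at a single point, knockout replicate 1, and the difference was -0.34 (95% interval -0.77 to 0.08, limma adjusted p = 0.15). After median centring Dbt was called lower at -0.62 (adjusted p = 0.033). Bckdha, the alpha partner of Bckdhb, had no read under the wild type label and 2, 1 and 1 reads under the knockout label, at 57.9% GC against 50.3% for Bckdhb. Bckdhb as a share of Dbt was 53.2%, 37.4% and 23.7% under the wild type label and 72.8%, 98.7% and 92.8% under the knockout label, again a ratio chosen after its values were seen.

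Mccc1 and Mccc2, the subunits of methylcrotonyl-CoA carboxylase, and Auh, the hydratase after it, did not pass the test. Mccc2 measured 5.92, 9.77 and 4.88 FPKM under the wild type label and 5.6, 5.54 and 5.29 FPKM under the knockout label, with the knockout values inside the wild type range and a difference of -0.23 (95% interval -0.77 to 0.31, limma adjusted p = 0.43). Removal of the GC and length trend gave -0.81 (adjusted p = 0.014), called lower. Mccc1 measured 0.4, 0.312 and 0.455 FPKM under the wild type label and 0.491, 0.688 and 0.721 FPKM under the knockout label, with a difference of 0.23 (limma adjusted p = 0.16) without the filter, and Auh measured 0.408, 0.67 and 0.306 FPKM under the wild type label and 0.421, 0.367 and 0.387 FPKM under the knockout label, with -0.06 (limma adjusted p = 0.71). Mccc1 stayed at 3.19% to 13.6% of Mccc2 in all 6 libraries.

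Both subunits of propionyl-CoA carboxylase, which takes up the carbon of valine, isoleucine, threonine and methionine, were called higher, Pcca only in the fit without the filter. Pccb, the beta subunit, rose from 2.12, 3.88 and 1.41 to 11.1, 9.88 and 9.26 FPKM, a difference of 1.73 (SE 0.26, limma adjusted p = 0.001), or 1.13 (adjusted p = 0.0051) with the trend removed. Pcca, the biotin-bearing alpha subunit, was under the filter at 0.218, 0.134 and 0.197 FPKM under the wild type label and 0.955, 1.27 and 0.855 FPKM under the knockout label and was called higher at 0.77 (limma adjusted p = 0.0068) in the fit of all genes. The ratios of the group means were 4.08 for Pccb and 5.6 for Pcca. Pcca as a share of Pccb overlapped between the groups, at 3.46% to 14% and 8.57% to 12.8%.

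The 16 members under the filter reached at most 1.27 FPKM in any library. In the fit without the filter, Prodh2, Aldh4a1, Fah and Pcca were called higher and none lower, against 15.4% and 5.09% of all genes. At an unadjusted p under 0.05 the counts were 6 higher and 0 lower, against 24.5% and 8.75% of all genes in that fit. With a pseudocount of 0.1 in place of 1, a setting chosen after seeing the data, 5 were called higher, Uroc1 being added, and 0 lower, against 16.1% and 5.05% of all genes. All 16 were under 1 FPKM throughout the wild type label, and 3 were at 0 in all of those libraries, which left little room for a lower call. Their GC content ran from 43.1% to 59.7%, with 12 of the 16 at 53% or more, against 1 of the 23 tested members.

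Beyond the members, 89 other genes of amino acid handling were listed in 6 groups, of which 45 were tested, 21 were higher and 9 lower, with a median log2 difference of 0.48. These shares are to be read beside the 33.7% and 20.4% of all tested genes. Echs1, Hsd17b10 and Csad, among those called higher, passed the filter only through the knockout label. After median centring 16 were higher and 14 lower, against 25.4% and 33.3% of all tested genes. Without knockout replicate 1 the counts were 20 higher and 11 lower, against 1884 and 1078 of all 5673 genes. In the group of other urea cycle and nitrogen genes, 1 of 3 tested was higher and 2 lower. Slc25a13, the mitochondrial aspartate-glutamate carrier that supplies aspartate to the cycle, fell from 149.9, 184 and 224 to 68.7, 64.6 and 51.9 FPKM, a difference of -1.57 (SE 0.21, limma adjusted p = 0.00068). Oat, ornithine aminotransferase, a pericentral enzyme, fell from 456 ± 217 to 182 ± 28.8 FPKM (SD, n = 3), and Slc25a15, the ornithine carrier, rose from 28.3 ± 9.69 to 45.7 ± 4.14 FPKM, with limma adjusted p = 0.012 and 0.047. The call of Slc25a15 was lost without the filter (adjusted p = 0.12), after median centring (0.45, adjusted p = 0.18) and with the trend removed (0.61, adjusted p = 0.08).

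Of 6 tested aromatic amino acid genes outside the members, 4 were higher and 1 lower, against 33.7% and 20.4% of all tested genes. Qdpr, which recycles the tetrahydrobiopterin cofactor, rose from 6.44 ± 4.72 to 28.6 ± 5.57 FPKM, and Kyat3 and Qprt, which act on kynurenine and quinolinate, respectively, rose as well, Kyat3 from 1.21 ± 0.466 to 6.08 ± 1.44 FPKM and Qprt from 1.92 ± 1.15 to 6.62 ± 1.9 FPKM. Their limma adjusted p was 0.0029, 0.00065 and 0.0053. The differences of Qdpr and Qprt went from 2.15 and 1.42 to 1.43 and 0.79 with the trend removed (adjusted p = 0.014 and 0.045).

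Of 15 tested genes of branched-chain, propionate and lysine breakdown, 8 were higher and 3 lower, against 33.7% and 20.4% of all tested genes. Etfdh, which passes electrons from Ivd and Gcdh to the respiratory chain, rose from 3.48 ± 0.952 to 29.3 ± 9.31 FPKM, a difference of 2.74 (SE 0.25, limma adjusted p = 0.00017). Mcee, the epimerase after propionyl-CoA carboxylase, rose from 0.713 ± 0.517 to 3.16 ± 0.382 FPKM, a difference of 1.32 (SE 0.22, limma adjusted p = 0.0017) that was 0.40 and not called (adjusted p = 0.088) with the trend removed. Echs1 and Hsd17b10, enzymes of the isoleucine and valine branches, rose, Echs1 from 0.159 ± 0.088 to 1.92 ± 0.656 FPKM and Hsd17b10 from 0.057 ± 0.0227 to 2.39 ± 1.41 FPKM. Both stayed under 1 FPKM throughout the wild type label, passed the filter only through the knockout label and could hardly have been called lower. The difference of Hsd17b10 went from 1.60 to 0.77 with the trend removed (adjusted p = 0.031). The 3 that fell, named after their values were seen, were Dld, the dihydrolipoamide dehydrogenase subunit of the ketoacid dehydrogenases, at 203 ± 47.3 and 82.7 ± 9.63 FPKM in the 2 groups, Aldh6a1 of the valine branch at 299 ± 43.8 and 144 ± 28.3 FPKM and Ppm1k, the phosphatase that activates the complex, at 36.7 ± 7.78 and 16.4 ± 5.19 FPKM. With the trend removed Ppm1k was not called (-0.63, adjusted p = 0.051).

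Of 8 tested genes for other small amino acids, 6 were higher and 0 lower by limma, against 33.7% and 20.4% of all tested genes. At an unadjusted limma p under 0.05 the counts were 6 higher and 0 lower, against 36.3% and 23.8% of all. After median centring they were 5 higher and 1 lower, against 25.4% and 33.3% of all. Gcsh, the carrier protein of glycine cleavage, rose from 2.27 ± 1.34 to 20.9 ± 6.73 FPKM, Csad of taurine synthesis from 0.329 ± 0.0427 to 5.38 ± 1.7 FPKM, and the transaminases Agxt2 from 12 ± 5.13 to 46.7 ± 9.14 FPKM and Abat from 2.78 ± 1.11 to 11.4 ± 2.3 FPKM. Their limma adjusted p was 0.00036, 0.00017, 0.001 and 0.001. Csad stayed under 1 FPKM throughout the wild type label, passed the filter only through the knockout label and could hardly have been called lower. Of 7 tested transporters 1 was higher and 1 lower, against 33.7% and 20.4% of all tested genes. Slc38a4, a sodium-coupled neutral amino acid carrier, fell from 821, 977 and 1205 to 394, 221 and 222 FPKM, a difference of -1.88 (SE 0.28, limma adjusted p = 0.001). Slc3a1 rose from 7.82 ± 2.34 to 18.6 ± 1.45 FPKM, a difference of 1.19 (SE 0.23, limma adjusted p = 0.0032) that was 0.66 and not called (adjusted p = 0.053) with the trend removed. Of 6 tested regulators 1 was higher and 2 lower, against 33.7% and 20.4% of all tested genes. Foxo1 and its coactivator Ppargc1a were lower, Foxo1 at 12 ± 1.8 and 4.49 ± 0.73 FPKM and Ppargc1a at 8.25 ± 1.39 and 3.91 ± 0.89 FPKM. The liver factor Onecut1 was higher at 1.12 ± 0.324 and 2.35 ± 0.824 FPKM. Their limma adjusted p was 0.001, 0.006 and 0.037. The groups of Onecut1 overlapped, and its call was lost without the filter (adjusted p = 0.093), after median centring (0.35, adjusted p = 0.18) and with the trend removed (0.33, adjusted p = 0.22). The difference of Ppargc1a went from -0.92 to -0.55 with the trend removed (adjusted p = 0.039). The glucocorticoid receptor Nr3c1, which acts on Tat and was named after its values were seen, measured 22.1 ± 2.58 and 20.7 ± 2.06 FPKM, with a difference of -0.09 (95% interval -0.47 to 0.29, limma adjusted p = 0.67).

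**Figure D4:**
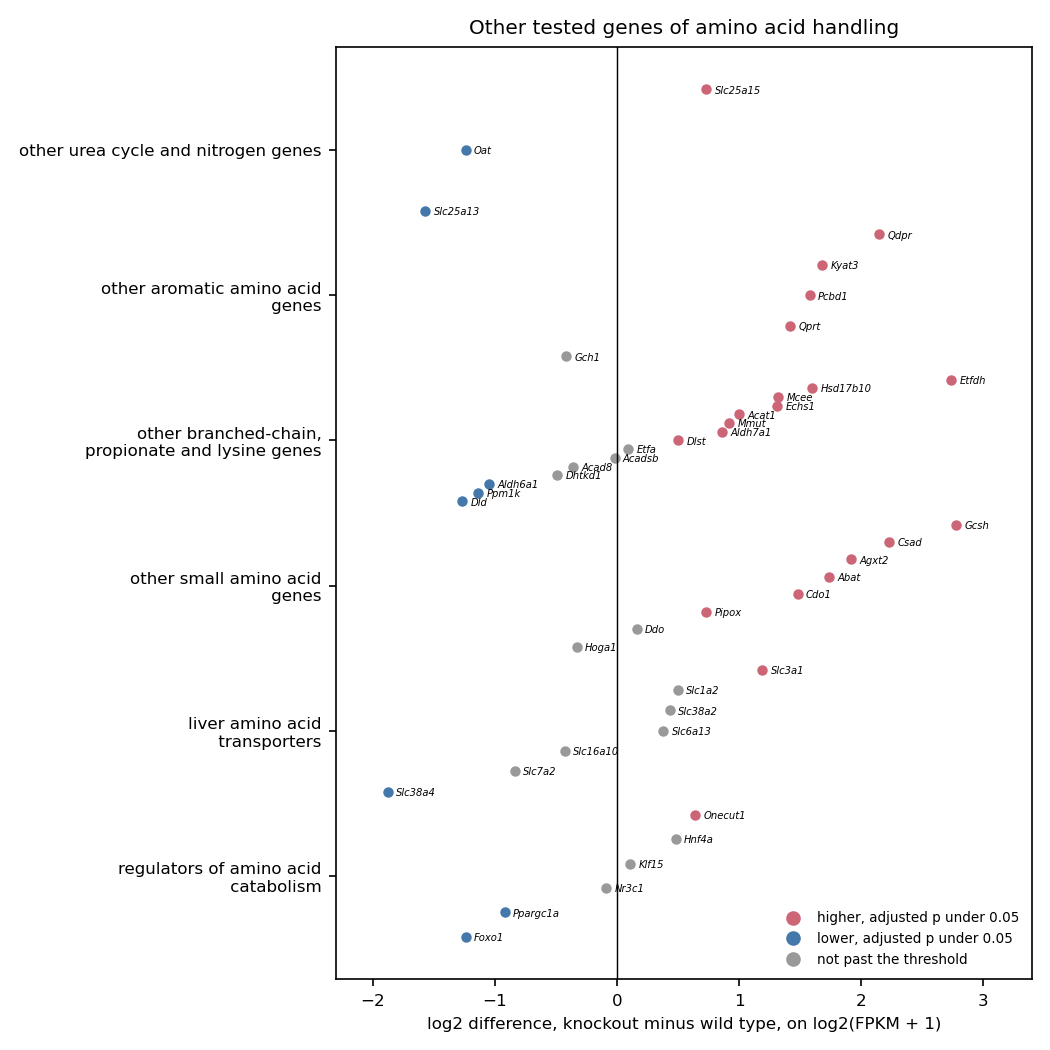
Log2 difference (knockout minus wild type, on log2(FPKM + 1)) of 44 of the 45 tested genes of amino acid handling outside the members, by group, 1 point per gene, red for called higher, blue for called lower and grey for neither. Slc38a4 and Slc25a13 are the lowest points of their groups, and Gcsh at 2.78 and Etfdh at 2.74 lie furthest to the right.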

How the data were processed

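RNA-seq was done on 6 liver samples, 3 labelled wild type and 3 Cdkl3-/-. The submitters' processing notes name HISAT2 and GRCm39. For the counting tool, the versions and the annotation, nothing was given in the sources used here. The deposited tables hold FPKM per row, per the file headers. The header of knockout replicate 3 carries another sample code than its title, and the sample's label was used. Symbols were used, not identifiers. With exon lengths from GENCODE M21 (GRCm38), 98.66% to 99% of low values (up to 40 reads) were whole reads to within 0.15, against 33.02% to 38.61% in the 1787 chromosome 1 rows, which were left out, as were 119 rows without a symbol. The steps gave the depths. The model, on log2(FPKM + 1), used limma 3.58.1 (R 4.3.3; trend, robust) with labelled genotype as the only term, and adjusted by Benjamini-Hochberg over all tested genes at 0.05. Log values understate changes of low genes. Every member is named, and of other groups up to 4 genes past the threshold with the smallest adjusted p. Dld, Aldh6a1, Ppm1k and Nr3c1 were added after their values were seen. Members and lists were chosen with earlier results of these data known. Alternatives were other pseudocounts (0.1, 0.01), filters, moderation, scalings, a replicate block, removal of GC and length trends (loess, library medians kept) and leaving out each library. Python 3.11.15 with pandas 2.3.3 and scipy 1.17.1 did the rest. GC content was that of the longest GENCODE transcript. A gene of the other aromatic group is counted but not reported here.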

Additional observations from a re-analysis of the deposited data

How the results depend on the processing

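Among the 14 called members, none changed direction under the alternatives run. Tat, Hgd, Gstz1, Kynu, Aadat, Aass, Ivd, Hibadh and Pccb kept their call in each alternative in which they could be tested. That was 15 alternatives for Ivd, 16 for Hgd and Pccb, and 17 for the others. The count of lower members was 1 without a filter, 4 after median centring and 4 with the GC and length trend removed, and 1 to 2 when a library was left out. Lower calls over all 5673 genes numbered 1891 after median centring and 1761 after quantile normalization, against 1157. At 10 FPKM or more 468 of 1746 tested genes were higher and 559 lower. Without a filter 3171 of 20529 genes were higher. At 10 FPKM or more 10 of 27 tested other amino acid genes were higher and 9 lower, and after median centring 14 of 45 were lower. Replicate numbers did not pair the libraries (correlation of same-numbered deviations -0.049, -0.096 and 0.181); with the replicate block 12 members were higher and 1 lower, Otc being lost (adjusted p = 0.072), against 1740 and 1031 of all genes. Signs reversed for uncalled members: after median centring Gpt2 (-0.02), Tdo2 (-0.16), Haao (-0.21) and Ftcd (-0.07); after quantile normalization Tdo2 (-0.42), Haao (-0.22) and Ftcd (-0.20); without mitochondrial transcripts Tdo2 (-0.15) and Haao (-0.15); with the trend removed Haao (-0.22) and Ftcd (-0.32). With a library left out the difference ran from -0.22 to 0.08 for Glud1, -0.53 to 0.06 for Got1, -0.02 to 0.26 for Tdo2, -0.13 to 0.35 for Haao and -0.42 to 0.02 for Mccc2. The causes were not tested. For the 16 members under the filter, a setting chosen after seeing the data (no filter, pseudocount 0.1) called 5 higher and 0 lower, against 16.1% and 5.05% of all genes. Reads there ran from 0 for several genes to 312 for Auh.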
